A study of Mus musculus with 12 samples.

Results

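Ndufa4, Ndufa5, Ndufb6, Stoml2, Aco1 and Txn1 are nuclear genes of mitochondrial respiration, iron handling and redox control, and their rows were followed through RNA-seq libraries of mouse serum. They were taken by symbol, as genes of this kind that lie in the first 60 Mb of chromosome 4 or the first 30 Mb of chromosome 6, and are 6 of 53546 rows in the deposited count files. The groups were serum of normal mice (6 samples) and serum of mice with colorectal cancer (6 samples), each sample labelled as a biological replicate. The labels state neither how the tumours arose nor the strain, sex, age or treatment of the animals. The files of colorectal cancer replicates 5 and 6 were identical and the column in both is headed with number 6, so they were counted as 1 library, replicate 6, which left 5 cancer libraries against 6 normal ones.

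The respiratory chain of the inner mitochondrial membrane passes electrons from NADH through complex I and onward to complex IV, cytochrome c oxidase, which hands them to oxygen. Ndufa5 and Ndufb6 encode accessory subunits of complex I, in its matrix arm and its membrane arm. Ndufa4, named for complex I where it was first placed, is now counted as a subunit of complex IV. Stoml2 encodes a stomatin-like scaffold of the inner membrane that binds cardiolipin and prohibitins. Aco1 encodes the cytosolic aconitase, which becomes an RNA-binding iron regulatory protein when it loses its iron-sulfur cluster. Txn1 encodes cytosolic thioredoxin, which reduces disulfides and supplies peroxiredoxins and ribonucleotide reductase with electrons. Serum is the fluid left after clotting, mature red cells have no mitochondria, and platelets, white cells and reticulocytes do.

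Library totals ran from 2889205 to 20774889 counts. A single row, named Olfr648 for an olfactory receptor, held 53.1% to 83.4% of the total in 6 libraries (2 normal and 4 cancer) and under 1% in the other 5. Without that row the totals were 2885958 to 4089488 in normal serum and 3727908 to 7033966 in cancer, so depth moved with the group; its part in the results was not tested. Among protein-coding rows in the stretches of chromosomes 4 and 6 that hold the members, 47 of 439 (10.7%) were listed at 0 in all libraries, against 42.2% over all protein-coding rows with a known position. A value below is that of the row of the gene's name, and it is not established that each row measures the gene it is named for.

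In colorectal cancer the row of Ndufa4 fell, and it was the 1 member to pass the test. Txn1 stood higher in cancer without passing, Ndufb6, Stoml2 and Aco1 had similar means in both groups, and Ndufa5 had counts in 3 cancer libraries and in no other library. Over all 9565 rows tested, 1.45% were called lower and 0.565% higher (edgeR quasi-likelihood test, adjusted p under 0.05). Among 279 tested protein-coding rows of the members' own stretches 6.09% were lower and 0.358% higher, so lower calls made up a greater share there than over the whole table, a description without a test. At an unadjusted p under 0.05 the shares were 11.4% of all rows and 18.6% of the stretch rows. Of the 6 members 5 passed the low-count filter. Their median log2 fold change was 0.04, beside 0.04 over all rows tested.

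**Figure D1:**
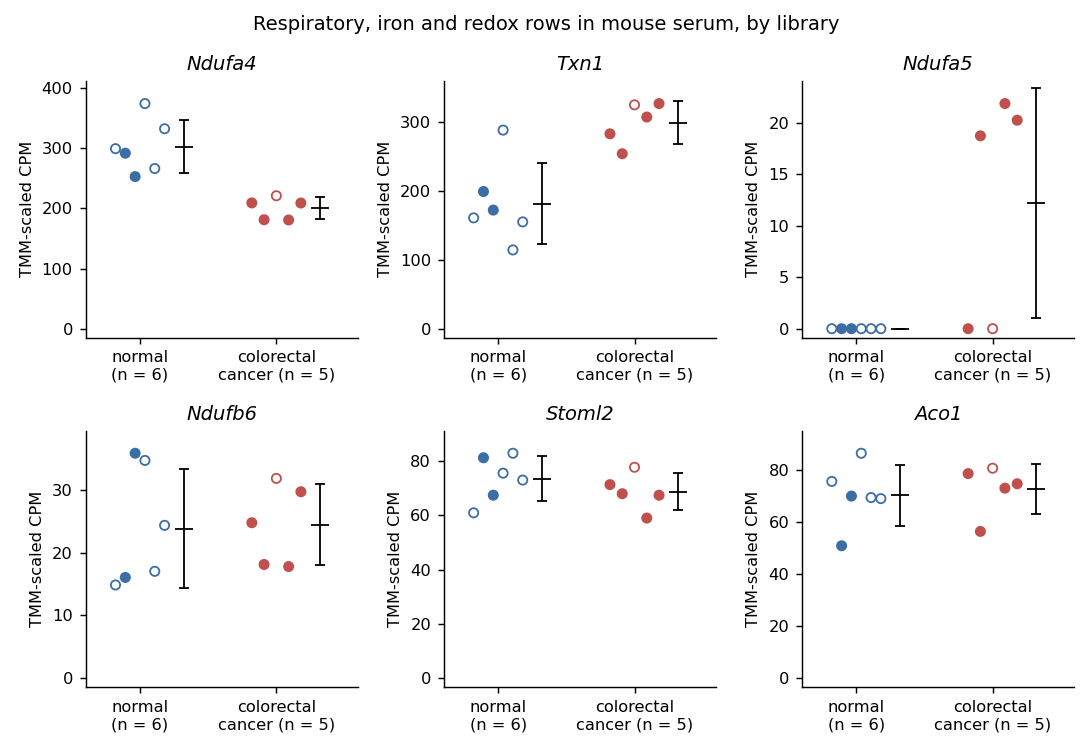
TMM-scaled counts per 1000000 (CPM, y axis) of each member in every library (points), by group, with the mean and SD beside the points. Filled points are libraries with high Olfr648 counts and open points are the others. Ndufa4 lies between 180.6 and 220.9 in cancer, below all normal libraries, while Ndufa5 is at 0 in 8 libraries.

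Ndufa4 lies on the minus strand of chromosome 6 from 11900292 to 11907497 (mm10, GENCODE M21), with 3 exon blocks. In normal serum its level ran from 252.7 to 374.0 TMM-scaled CPM (counts per 1000000, scaled by library total and a trimmed mean factor), with a median of 295.3. The cancer replicates 1, 2, 3, 4 and 6 stood at 209.0, 181.0, 220.9, 180.6 and 208.8 CPM. Every cancer library was below every normal one, which held in either direction for 3.64% of all rows tested and 7.89% of the stretch rows. The means were 303 ± 44.6 and 200.1 ± 18.2 CPM (SD, n = 6 and 5). The log2 fold change of -0.60 (SE 0.11, 95% interval -0.84 to -0.36), a level 1.51-fold lower in cancer, had an adjusted p of 0.0141 in the edgeR quasi-likelihood test. With 1551 or more counts in each library, counting error was at most 2.54% of a value, far less than the spread between libraries.

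Ndufa4 was lower in cancer in each alternative, but not always past the threshold. Without cancer replicate 2 the adjusted p was 0.0501 (edgeR, log2 fold change -0.55). With the high or low Olfr648 count as a covariate it was 0.081 (-0.50), and within the 6 high libraries alone 0.165 (-0.48). Among libraries with low Olfr648 counts the single cancer library, at 220.9 CPM, was below all 4 normal ones, which ran from 266.1 to 374.0. The scaling of the libraries mattered more: when the Olfr648 row was dropped and libraries were scaled by their remaining totals alone, the median of all rows moved from 0.04 to 0.43, Ndufa4 went to -0.20 (edgeR adjusted p = 0.193), and its groups overlapped.

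The sequence upstream of Ndufa4 is shown because it separates this row, which fell, from a neighbour that did not pass. The gene Phf14, which encodes a PHD finger protein of chromatin, starts on the opposite strand, its annotated start 312 bases from that of Ndufa4. The part below is chr6:11907498-11907700, minus strand, GRCm38.p6 (RefSeq promoter table), 203 bases that touch no annotated exon.
Ndufa4 upstream: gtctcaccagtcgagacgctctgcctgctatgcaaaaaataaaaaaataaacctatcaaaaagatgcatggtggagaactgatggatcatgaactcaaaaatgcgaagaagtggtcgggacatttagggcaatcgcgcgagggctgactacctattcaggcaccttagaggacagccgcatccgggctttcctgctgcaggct
It is written in lower case throughout, since it held none of the motifs searched. Phf14 had 96.1 CPM in normal serum and 102.9 in cancer (log2 fold change 0.10, SE 0.13). The ratio of Ndufa4 to Phf14 counts within a library does not depend on the scaling between libraries. Its log2 value was 1.66 ± 0.23 in normal serum and 0.96 ± 0.18 in cancer (SD, n = 6 and 5), with no overlap, a difference of -0.70 (two-sided exact permutation p = 0.00216 over 462 splits, the smallest possible, adjusted p = 0.0108 over 5 neighbour pairs). This set of pairs, each member with a tested protein-coding neighbour within 10 kb, was chosen after the values were seen.

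Txn1 lies on the minus strand of chromosome 4 from 57943373 to 57956411. Its normal libraries ran from 114.2 to 287.8 CPM with a median of 166.3. Cancer replicates 1, 2, 3, 4 and 6 stood at 282.4, 253.6, 324.4, 306.8 and 326.3 CPM. A single normal library, replicate 4 at 287.8 CPM, reached into the range of the cancer libraries; the other 5 were at 198.8 CPM or below. The means were 181 ± 59.0 and 299 ± 30.8 CPM (SD, n = 6 and 5), a log2 difference of 0.72 (SE 0.19, 95% interval 0.32 to 1.12), and the edgeR quasi-likelihood test gave an adjusted p of 0.0762.

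Whether Txn1 passed depended on the test and on replicate 4 of the normal group. Without that library the log2 fold change was 0.90 and the adjusted p 0.0106 (edgeR). By DESeq2 the adjusted p was 0.0070, where 1.81% of all rows were higher, and 0.0401 in edgeR with rows under a mean of 10 CPM removed, where 1.97% of the 3955 rows left were. Scaled by the totals that remain without Olfr648, it was 0.00361 (edgeR) at a log2 fold change of 1.12. On that last scale normal libraries ran from 224.7 to 495.2 and cancer libraries from 599.4 to 744.8, with no overlap. That scale moved the whole table: 17% of 8134 rows were called higher on it, 11.8% were higher in each cancer library than in any normal one, and the median log2 fold change was 0.43. With the Olfr648 covariate the adjusted p was 0.218 (log2 fold change 0.73), and over all 21 alternatives it ran from 0.00361 to 0.218 while the sign was positive in each.

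The upstream sequence of Txn1 is shown beside that of Ndufa4, since these 2 rows moved apart. The part below is chr4:57956412-57956661, minus strand, GRCm38.p6 (RefSeq promoter table), the 250 bases before the annotated start; capitals mark GGGCGG on either strand and TATAAA.
Txn1 upstream: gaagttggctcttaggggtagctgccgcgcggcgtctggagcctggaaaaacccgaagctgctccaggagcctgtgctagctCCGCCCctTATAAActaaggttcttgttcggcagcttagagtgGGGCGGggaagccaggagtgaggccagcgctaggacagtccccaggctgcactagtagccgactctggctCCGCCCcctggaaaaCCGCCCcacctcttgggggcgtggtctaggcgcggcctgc
It holds 4 matches to GGGCGG, the core of Sp1 sites, and 1 to TATAAA, and 64.0% of its bases are G or C, against 51.6% in the Ndufa4 window of equal length and 48.8% in its printed part. Of 32851 RefSeq windows of 250 bases, 32.7% held GGGCGG and 12.4% held TATAAA. The antioxidant response element core TGACNNNGC, present in 10.2% of all windows, was in no member's window. The NRF1 core (3.74% of windows) was found for Ndufa5, the ETS core CCGGAAG (6.91%) for Ndufb6 and Stoml2, and GGGCGG for all members except Ndufa4, in Ndufa5 at 1 of its 2 listed starts. Both strands were searched, and no motif contains another. These are matches of letters only.

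Because the libraries' scaling moved the changes, each pair of members was also compared by the ratio of their counts within a library, 15 pairs in all. Ndufa4 and Txn1 changed places in counts, which are not corrected for gene length. Per kilobase of exon, all annotated exons of a gene merged, normal replicate 4, alone of the normal libraries, already had Txn1 above Ndufa4 (273.9 and 270.9 CPM per kb). In each normal library Ndufa4 had more counts than Txn1, by a ratio of 1.30 to 2.33, and in each cancer library fewer, by a ratio of 0.589 to 0.740. The log2 ratio went from 0.78 ± 0.34 to -0.58 ± 0.13 (SD, n = 6 and 5), a difference of -1.36 (two-sided exact permutation p = 0.00216 over 462 splits, the smallest possible, adjusted p = 0.0162 over 15 pairs).

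Ndufa4 also fell against Aco1, by 0.64 on the log2 scale (adjusted p = 0.0162), and against Stoml2, by 0.49 (adjusted p = 0.0216), and in both ratios the groups did not overlap (exact permutation test, same 15 pairs). Txn1 rose against Stoml2, whose ratio to Txn1 went from -1.25 ± 0.48 to -2.12 ± 0.20 on the log2 scale (exact permutation adjusted p = 0.0244, overlapping groups). The ratio of Aco1 to Txn1 went from -1.32 ± 0.45 to -2.04 ± 0.13 (exact permutation adjusted p = 0.039). These ratios show unequal change and not which member of a pair moved.

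The calls of Ndufa4 over Txn1 and Ndufa4 over Aco1 held with each library left out in turn, with a pseudocount of 5 and with the repeated file kept. The other 3 calls were each lost without cancer replicate 2, 3, 4 or 6, at exact permutation adjusted p from 0.05 to 0.0714, where fewer splits are possible. Against Ndufb6, neither Ndufa4 (difference -0.68, exact permutation adjusted p = 0.0835) nor Txn1 passed (-0.68 for Ndufb6 over Txn1, adjusted p = 0.0812). Without normal replicate 3 the former passed (-0.86, exact permutation adjusted p = 0.0298), as it did with the repeated file kept, and without normal replicate 2 the latter (-0.82, exact permutation adjusted p = 0.0397). Among Ndufb6, Stoml2 and Aco1 no ratio passed, with differences of 0.18 (SE 0.28) for Ndufb6 over Stoml2, 0.03 (SE 0.24) for Ndufb6 over Aco1 and -0.15 (SE 0.17) for Stoml2 over Aco1.

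**Figure D2:**
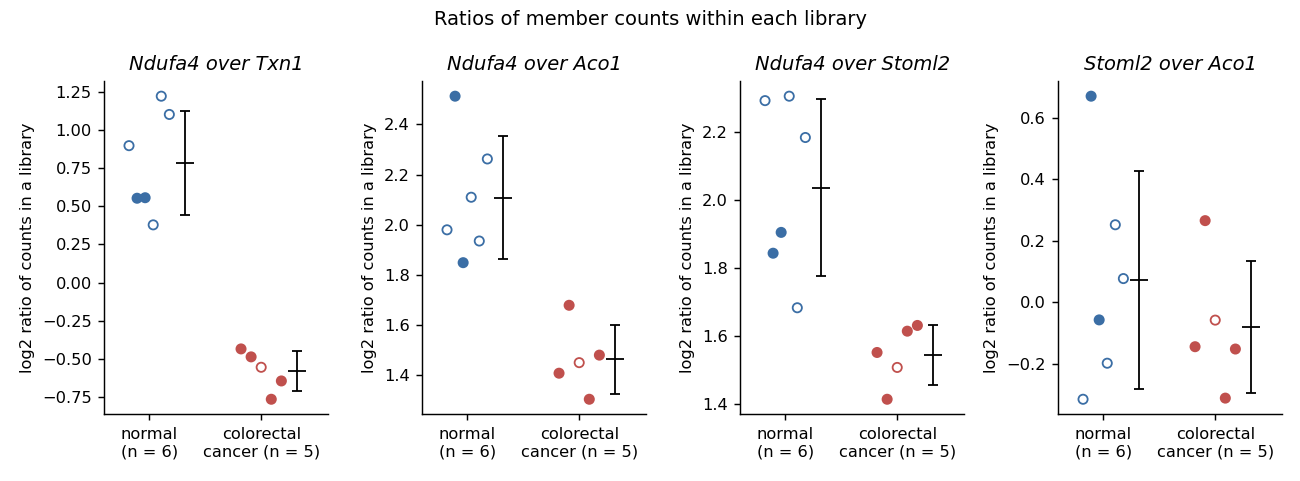
Log2 ratio of the counts of 2 members within each library (y axis), by group, with mean and SD; filled points are libraries with high Olfr648 counts. Ndufa4 over Txn1 is above 0 in all 6 normal libraries and below 0 in all 5 cancer libraries, without correction for gene length. Stoml2 over Aco1 overlaps between the groups.

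Ndufa5, on the minus strand of chromosome 6 from 24518666 to 24528013, differed from the other members in kind. It was listed at 0 in all 6 normal libraries and in cancer replicates 1 and 3, and had 311, 285 and 285 counts in cancer replicates 2, 4 and 6. In CPM these are 18.7, 21.8 and 20.2, close to each other, and nothing lay between them and 0. A count of 3 corresponds to 0.291 to 0.604 CPM in the 8 libraries at 0, counting error only. How reads were assigned to rows is not known, so a 0 need not mean that the RNA was absent. The 3 libraries with counts were the deepest apart from Olfr648, at 5398455 to 7033966 counts, and the others held 2885958 to 4624575; the part of depth was not tested.

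The mean of Ndufa5 in cancer was 12.2 ± 11.2 CPM (SD, n = 5), and 2 of the 5 cancer libraries were also at 0. It is 145-fold the 0.0841 CPM of 3 counts over the whole normal group. That figure takes each 0 as counting error alone, which was not tested. The row did not pass the low-count filter and was not tested with it. Without the filter edgeR's adjusted p was 0.357, and within the 6 libraries of high Olfr648 counts 0.478. Of 53546 rows it was the 1 row at 0 in just these 8 libraries with 20 counts or more in each of the other 3. The search took the pattern of Ndufa5 itself, after its values were seen, so being the 1 match lends the row no support. Rows that switch in other sets of libraries were not counted. Its ratios to the other members rest on the pseudocount in the libraries at 0 and did not pass (exact permutation adjusted p from 0.0933 to 0.152), though Ndufa4 over Ndufa5 did without cancer replicate 1 (0.0476).

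Ndufb6 lies on the minus strand of chromosome 4 from 40270591 to 40279421. It ran from 14.8 to 35.8 CPM in normal serum (median 20.7) and stood at 24.7, 18.1, 31.8, 17.8 and 29.7 CPM in cancer replicates 1, 2, 3, 4 and 6. The groups covered each other, with means of 23.8 ± 9.46 and 24.4 ± 6.44 (SD, n = 6 and 5). Its log2 fold change of 0.04 had a 95% interval from -0.54 to 0.61. The row had as few as 77 counts in a library, where counting error alone is 11.4%. It shares 257 exon bases with Smim27 on the other strand (731 counts over all libraries). Whether reads of the pair were told apart is not known, since no source used here says whether counting used strand.

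Stoml2, on the minus strand of chromosome 4 from 43027690 to 43031710, had overlapping groups. Normal libraries ran from 60.9 to 82.9 CPM (median 74.3) and cancer replicates 1, 2, 3, 4 and 6 stood at 71.3, 68.0, 77.7, 59.0 and 67.4. The means of 73.5 ± 8.32 and 68.7 ± 6.78 CPM differed by -0.10 on the log2 scale (SE 0.10, 95% interval -0.33 to 0.13, edgeR adjusted p = 0.853). On totals without Olfr648 the sign turned (0.29, edgeR adjusted p = 0.124). It shares 502 exon bases with the antisense gene Gm26643, which was not analysed here. Fam214b, 704 bases upstream on the same strand, fell from 427 ± 87.2 to 218 ± 29.7 CPM (edgeR adjusted p = 0.00603), and the ratio of Stoml2 to it rose by 0.86 on the log2 scale (exact permutation p = 0.00649, adjusted p = 0.0162 over 5 neighbour pairs). Against Pigo, 1871 bases away on the other side, the ratio of Stoml2 moved by -0.003 (SE 0.12).

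Aco1 lies on the plus strand of chromosome 4 from 40143081 to 40198338, with 23 exon blocks. Its normal libraries ran from 51.0 to 86.6 CPM (median 69.9), and cancer replicates 1, 2, 3, 4 and 6 stood at 78.8, 56.5, 80.9, 73.2 and 74.9. The lowest library of either group belongs to the normal one, replicate 2. The means were 70.4 ± 11.6 and 72.8 ± 9.61 CPM, with a log2 fold change of 0.05 (SE 0.13, 95% interval -0.24 to 0.34, edgeR adjusted p = 0.951). On totals without Olfr648 it passed as higher (0.45, edgeR adjusted p = 0.0373), close to the median of 0.43 over all rows on that scale, of which 17% were called higher. Ddx58, the RIG-I sensor of viral RNA 5435 bases downstream, had a log2 fold change of 0.17, and the ratio of Aco1 to it did not differ past the threshold (-0.11, SE 0.13, exact permutation p = 0.398).

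**Figure D3:**
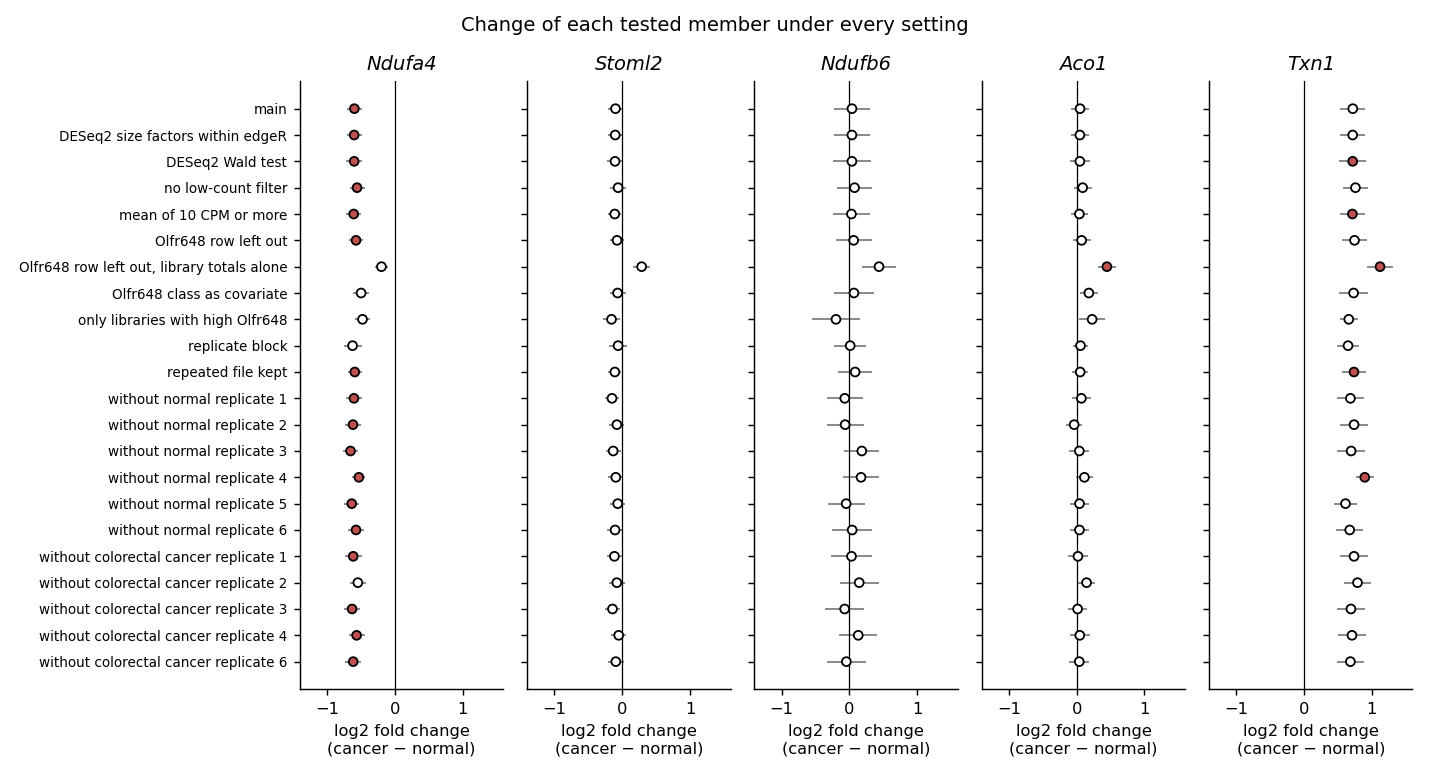
Log2 fold change of colorectal cancer against normal serum (x axis, with SE) for the 5 tested members under each alternative of scaling, filter, test or libraries (y axis). Filled points have an adjusted p under 0.05. Ndufa4 is below 0 and Txn1 above 0 in each setting, and the row for library totals alone sits to the right for all 5.

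Per kilobase of exon, the members' levels in normal serum were ordered Ndufa4, Txn1, Ndufb6, Stoml2 and Aco1, at 219 ± 32.3, 173 ± 56.1, 36.1 ± 14.4, 24.3 ± 2.75 and 15.7 ± 2.57 CPM per kb (SD, n = 6), with Ndufa5 at 0. Ndufa4 and Txn1 overlapped there (183.0 to 270.9 and 108.6 to 273.9), as did Ndufb6 and Stoml2 (22.5 to 54.3 and 20.2 to 27.4). In cancer Txn1 came first at 284 ± 29.3 and Ndufa4 second at 144.9 ± 13.2 CPM per kb (SD, n = 5), without overlap. Ndufb6 followed at 37.1 ± 9.77, Stoml2 at 22.7 ± 2.24 and Aco1 at 16.2 ± 2.14, and none of these ranges overlapped. Ndufa5 came last with 11.8 ± 10.8, its libraries running from 0 to 21.2 and so across the ranges of Stoml2 and Aco1. The length used merges the exons of all annotated transcripts, 3022 bases from 11 transcripts for Stoml2 and 659 from 2 for Ndufb6. Which transcripts were present is not known, and other lengths could change this order.

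Around the members, 215 genes of the respiratory chain, the inner membrane, iron handling and thioredoxin and redox control were listed. Of these 211 have a row, 84 were tested, and 70 had no count in any library. Of the 84, Ndufa4 alone was called lower in the edgeR test (1.19%, beside 1.45% of all rows tested). None was called higher (0%, beside 0.565%). An unadjusted p under 0.05 was found for 10 (11.9%, beside 11.4% of all rows). By DESeq2 3 were lower (Ndufa4, Gsr and mt-Co3) and Txn1 was higher, where 2.66% and 1.81% of all 9565 rows fitted were lower and higher. The median log2 fold change of the 84 was -0.03. The groups did not overlap in 2 of the 84 (2.38%, beside 3.64% of all rows), Ndufa4 and Gsr, the glutathione reductase gene. Gsr, named here because of its values, had 19.4 and 14.1 CPM and did not pass in edgeR (adjusted p = 0.173). Just 7 of the 84 lie in the stretches of the members. The doubt about row names given above holds inside and outside these stretches. Rows at 0 in all libraries made up 10.7% of the stretch rows and 42.2% of all protein-coding rows with a known position.

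Complex I had 11 tested of 36 rows and 15 at 0 throughout, among them Ndufa1, Ndufa10 and Ndufa12, and none passed. Ndufv1, the subunit that binds NADH, had 81.7 ± 20.7 CPM in normal serum and 81.3 ± 45.9 in cancer. Ndufb2, another membrane-arm subunit, had 9.16 and 10.5 CPM. None of 4 tested assembly factors of complex I passed either, Ndufaf4, in the chromosome 4 stretch, standing at 28.0 ± 3.90 and 31.2 ± 3.49 CPM. None of 6 tested genes of complexes II and III passed (Sdhb 9.12 and 8.36, Sdha 6.36 and 5.84 CPM), nor of 7 of the ATP synthase (Atp5j2 144.0 ± 35.7 and 163.2 ± 8.59 CPM).

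Of the 9 tested genes of complex IV, which Ndufa4 belongs to, the other 8 did not pass. Cox6c, a nuclear subunit, varied widely, with 88.4 ± 133.4 CPM in normal serum and 46.7 ± 57.5 in cancer. Lrpprc, which stabilises mitochondrial mRNAs, had 14.8 and 19.2 CPM. The core subunits from the mitochondrial genome were abundant, mt-Co1 at 30747 ± 3598 and 26869 ± 2105 CPM and mt-Co2 at 4824 ± 462 and 4077 ± 327, with log2 fold changes of -0.19 and -0.24 (edgeR adjusted p = 0.469 and 0.244). The third, mt-Co3, stood at 4183 ± 394 and 3443 ± 354 CPM (log2 fold change -0.28, edgeR adjusted p = 0.189), and DESeq2 called it lower. In edgeR none of 13 mitochondrially encoded protein genes passed. Their median log2 fold change was -0.03, with 8 below 0 and 5 above.

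Among 9 tested iron genes none passed: Epas1, a hypoxia factor whose mRNA carries an iron-responsive element, had 17.1 and 14.9 CPM, Fbxl5, which degrades iron regulatory proteins, 9.53 and 8.69. Alas2 and Fth1, whose mRNAs carry iron-responsive elements, Ireb2, the gene of the other iron regulatory protein, and Alas1 were listed at 0 in all libraries. Of the inner membrane list, 8 genes were tested with Stoml2 and none passed; the protease gene Parl had 10.9 ± 3.96 and 22.9 ± 18.9 CPM. Among 17 tested redox genes, Txn2, the mitochondrial thioredoxin, had 159.1 ± 31.9 and 166.3 ± 63.9 CPM, and Keap1, the sensor that holds NRF2 in check, 143.2 ± 14.7 and 115.7 ± 19.8 (edgeR adjusted p = 0.314). Of the other related rows, Stom, a paralog of Stoml2, had 1.04 and 1.21 CPM, and AA467197, Ireb2, Stoml1, Stoml3 and the pseudogene Txn-ps1 were at 0.

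**Figure D4:**
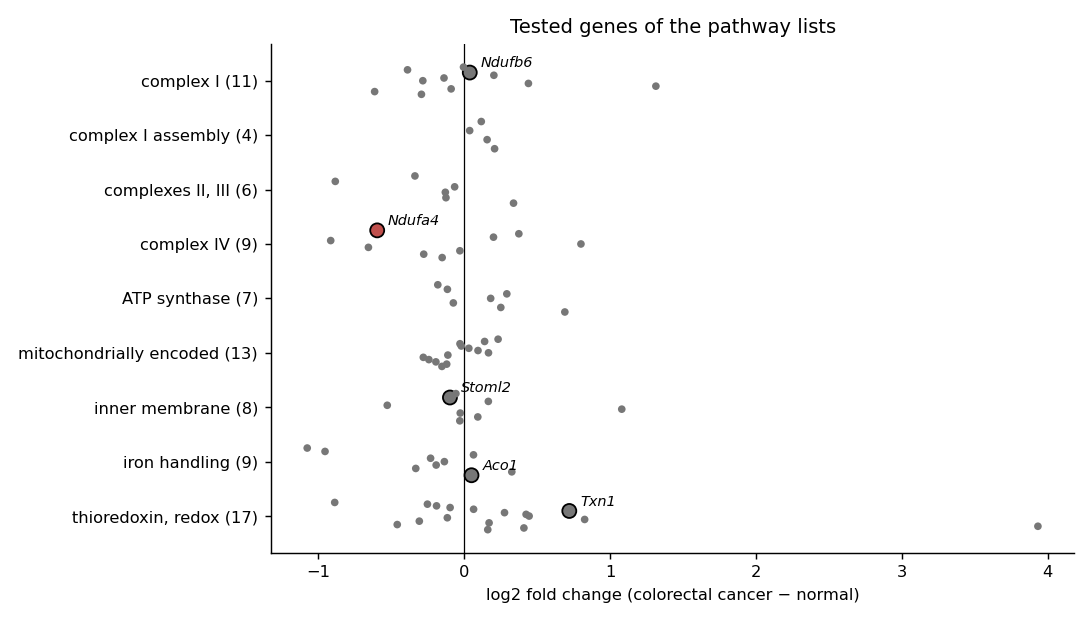
Log2 fold change (x axis) of each tested gene of 9 pathway lists (y axis, number tested in brackets). Large outlined points are the members and the red point, Ndufa4, is the 1 gene with an adjusted p under 0.05. The genes scatter on both sides of 0; the redox point at 3.93 is Gpx4, a row of 131 counts in all (adjusted p = 0.0984).

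By the root mean square difference of log2(CPM + 1) over the 11 libraries, after subtracting each row's mean, the rows of the stretches most like Ndufa4 were Fam221b (0.125) and Atp6v1f, a subunit of the vacuolar proton pump (0.131). Fam221b had 482 and 288 CPM in normal and cancer serum, Atp6v1f 376 and 268, and in each the groups did not overlap. Chosen for likeness to Ndufa4, these rows were also called lower (edgeR adjusted p = 0.00785 and 0.0289). Of the tested stretch rows 6.09% were called lower and 7.89% had groups that did not overlap. For Stoml2 they were Nfx1 (0.0751) and Zbtb5 (0.112), for Aco1 Otud6b (0.113) and Tgs1 (0.117), for Ndufb6 Klf4 (0.300) and Met (0.301), and for Txn1 Tbc1d2 (0.274) and Sem1 (0.280). Ndufa5 had no close match, the nearest being Baat (1.65) and Frrs1l (1.68). This likeness is a description over shared libraries.

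Some marker rows of blood cells differed between the groups as well. Of 10 tested erythroid genes 3 fell, Tspan33 (469 ± 103.6 to 161 ± 50.4 CPM), Tmod1 (188 ± 53.7 to 58.7 ± 24.4) and Hemgn (51.0 ± 10.7 to 15.3 ± 5.82), and the summed level of the 21 rows of that list ran from 541 to 934 CPM in normal serum and from 130.3 to 335 in cancer. Alas2, Hbb-bs and Hbb-bt were at 0. Of 4 tested platelet genes 1 fell, Itga2b (874 ± 178 to 379 ± 148), with Gng11 at 3382 ± 702 and 2181 ± 533 CPM; the list's summed level ran from 3794 to 6036 in normal serum and from 2111 to 3108 in cancer, with Pf4 and Ppbp at 0. The summed level of neutrophil rows ran from 99.5 to 378 and from 408 to 714 CPM, most of it Mmp8 (206 ± 119.2 and 558 ± 119.8), while S100a8 and S100a9 were at 0 and neither of 2 tested genes passed.

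Among 3 monocyte genes Adgre4 rose (13.7 ± 0.967 to 20.8 ± 3.31 CPM), and among 6 T and NK cell genes Cd3e fell (377 ± 71.3 to 195 ± 47.2). None of 6 B cell genes passed (Pax5 725 ± 146 and 716 ± 37.8 CPM) and none of 3 intestinal ones (Lgr5 118.6 ± 7.36 and 123.9 ± 13.8). The summed level of the monocyte list ran from 18.9 to 28.2 CPM in normal serum and 27.6 to 37.6 in cancer, and that of the T and NK cell list from 355 to 533 and from 202 to 328. Thus the summed erythroid, platelet and T and NK cell rows were lower, and the neutrophil rows higher, without overlap. Most of each of these sums was a single row. In normal serum Tspan33 held 469 of a mean of 739 CPM, Gng11 3382 of 4433, Cd3e 377 of 437 and Mmp8 206 of 227. Gng11 and Mmp8 did not pass (edgeR adjusted p = 0.0982 and 0.134). These were the same libraries in which Ndufa4 was lower and Txn1 stood higher. The part of these cells in the members' values was not tested. The RNA is from serum, so these sums are not counts of cells. In bulk RNA fewer cells of a type and less RNA per cell cannot be told apart.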

How the data were processed

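Each deposited file gives whole-number counts by gene symbol for 1 library, read from the values as not normalized by the authors. Per the submitters' processing notes Trim Galore, HISAT2, StringTie and build mm10 were used. Their versions and roles, the annotation, and how reads were counted and by which strand: not given in the sources used here. Positions come from GENCODE M21, matched by symbol, and upstream sequences from RefSeq (GRCm38.p6).

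The whole table was fitted with edgeR 4.0.16 (R 4.3.3; filterByExpr by group, TMM factors, robust glmQLFit, glmQLFTest, group as the only term) on 11 libraries, with Benjamini-Hochberg adjustment over 9565 rows at 0.05. DESeq2 1.42.0, other scalings and filters, the Olfr648 row, the replicate number as a block and left-out libraries were alternatives. Ratios of 2 members used counts plus 0.5 and two-sided exact permutation tests. Python 3.11.15 with SciPy 1.17.1, pandas 2.3.3 and Matplotlib 3.10.9 made tables and plots. On data simulated for this comparison over 9565 rows, 27.0% of genes changed 2-fold and 59.0% of those changed 4-fold were recovered, and 5.49% of calls were unchanged genes.

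Named genes were the members, each list's called genes and its 3 (markers, 2) most abundant, rows at 0, the nearest tested neighbours and the 2 most similar rows; some taken by this rule are given only in counts. Members, lists and alternatives were chosen with earlier results of these data known.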

Additional observations from a re-analysis of the deposited data

How the results depend on the processing

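The alternatives are grouped by setting. By DESeq2 254 rows were lower and 173 higher over the whole table (main counts 139 and 54), 10 stretch rows were higher (main count 1), 3 pathway rows were lower and 1, Txn1 (log2 fold change 0.72), was higher, the 1 member so called. With no low-count filter 3 stretch rows were higher, and with Olfr648 left out 2. At a mean of 10 CPM, with 172 of 3955 rows lower and 78 higher, 3 stretch rows and 1 member and pathway row (Txn1, 0.71) were higher. With totals alone 1383 of 8134 rows, 93 stretch rows, 18 pathway rows and 2 members were higher, 0 members and pathway rows lower, and the changes were -0.20 for Ndufa4, 0.29 for Stoml2 (reversed), 0.45 for Aco1 and 1.12 for Txn1; the scaling itself moved the median of all rows. With the Olfr648 covariate the counts were 68 lower and 13 higher, with 0 members and pathway rows lower and 0 stretch rows higher (Ndufa4 -0.50). With the 6 high libraries alone, fewer samples, they were 27 and 34, with 0 members and pathway rows lower, 3 stretch rows lower and 0 higher (Ndufa4 -0.48, Ndufb6 reversed at -0.20). With the repeated file kept 112 rows, 3 stretch rows, 2 pathway rows and 1 member were higher (Txn1 0.74), and the log2 ratio of Ndufa4 to Ndufb6 fell by 0.72 past the threshold. Except where stated, the cause was not tested.

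With the replicate number as a block 59 rows were lower and 6 higher, 0 members and pathway rows lower, 6 stretch rows lower and 0 higher, and Ndufa4 had a log2 fold change of -0.62 (edgeR adjusted p = 0.115). The labels do not say whether the numbers pair the samples. The correlation of same-numbered deviations ran from -0.07 to 0.03 over 5 pairs, and 1 of 5 correlated best with its own number. Other differences between libraries enter these deviations, so the check cannot exclude pairing.

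With each library left out in turn, 89 to 139 rows were lower and 16 to 67 higher, 14 to 17 stretch rows lower and 0 to 3 higher, 0 to 1 members and pathway rows lower and 0 to 1 higher. The log2 fold change ran from -0.65 to -0.53 for Ndufa4, -0.070 to 0.18 for Ndufb6, -0.038 to 0.15 for Aco1 and 0.61 to 0.90 for Txn1. It was reversed for Ndufb6 at -0.069, -0.063 and -0.048 without normal replicates 1, 2 and 5 and at -0.070 and -0.045 without cancer replicates 3 and 6, and for Aco1 at -0.038 without normal replicate 2. Differences of log2 ratios ran from -0.86 to -0.56 for Ndufa4 over Ndufb6, -6.41 to -4.16 for Ndufa4 over Ndufa5, -0.56 to -0.44 for Ndufa4 over Stoml2, -0.82 to -0.54 for Ndufb6 over Txn1, -1.003 to -0.71 for Stoml2 over Txn1, -0.84 to -0.59 for Aco1 over Txn1 and -0.11 to 0.17 for Ndufb6 over Aco1, which reversed (-0.11, -0.046, -0.033 and -0.036 without normal replicates 1 and 5 and cancer replicates 3 and 6). Ndufa5 has no log2 fold change in the filtered table and is not compared across settings. Ndufb6 had 77 to 418 counts a library, with a counting error of up to 11.4%, and Ndufa5 0 to 311.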
